A study of Mus musculus with 24 samples.

Results

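The deposited table held 3 libraries of dural macrophages whose column names carry the mark P6 and 3 whose names carry the mark P5, out of 24 libraries from dura and diaphragm, and these 6 were compared across all genes. The members of the comparison were taken from the column names alone, with the numbers 1, 3 and 4 in each mark. The dura mater is the outer membrane around the brain, and its macrophages were sorted in bulk by flow cytometry from digested dura after blood had been flushed out by cardiac perfusion. All dural samples came from wild-type C57BL/6 mice aged 17 weeks at steady state, per their labels, although the title and design text of the series speak of RAG-1 deficient mice given T cells. The labels divide the 9 dural samples into 3 subsets called C1, C2 and C3, but no label uses P4, P5 or P6, so the marks were not matched to subsets and what they stand for was not settled here. The labels name no sorting gates, no number of mice and no pooling for a library, so the p-values measure the spread between these libraries, which may be technical. Library totals ran from 11631455 to 24077834 counts in P5 and from 11775166 to 14593506 counts in P6. Libraries of 1 mark differed by 10.6 to 28.7 times the chi-square expected from counting alone, so no column repeats the counts of another, which does not show that they came from separate mice. Levels are given as CPM (counts scaled to a library of 1000000) in the libraries numbered 1, 3 and 4, in that order, and depend on gene length, so they compare libraries and not genes.

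Border macrophages of the meninges are commonly divided into resident cells that carry LYVE1, CD163 and CD206, take up proteins, lipids and hemoglobin and express little MHC class II, and cells with high MHC class II that express CCR2 and are renewed from blood monocytes. MHC class II molecules present peptides to CD4 T cells, and their transcription depends on the coactivator encoded by Ciita. CCR2 is the receptor for monocyte chemoattractants such as CCL2, and S100A4 is a calcium-binding protein of motile leukocytes.

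P6 libraries held higher levels of Ccr2, S100a4 and most tested MHC class II and cell cycle genes than P5 libraries. They held lower levels of nearly all genes of the LYVE1-type resident macrophage list, among them the C-type lectins Cd209f, Cd209g and Cd209b and the scavenger receptor Cd163. The iron exporter gene Slc40a1 was also lower. Of 12513 genes tested with edgeR, 2421 (19.3%) passed the adjusted p threshold of 0.05, 1246 higher in P6 (9.96%) and 1175 lower (9.39%). A change of at least 1 on the log2 scale was reached by 481 of the higher and 435 of the lower genes, and a change of at least 3 by 35 and 40. The 3 P6 libraries did not overlap the 3 P5 libraries for 4634 genes (37%). Without P5 library 3 the count fell to 1454, with 796 higher and 658 lower. The median change over all tested genes was 6.3e-05 on the log2 scale.

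**Figure D1:**
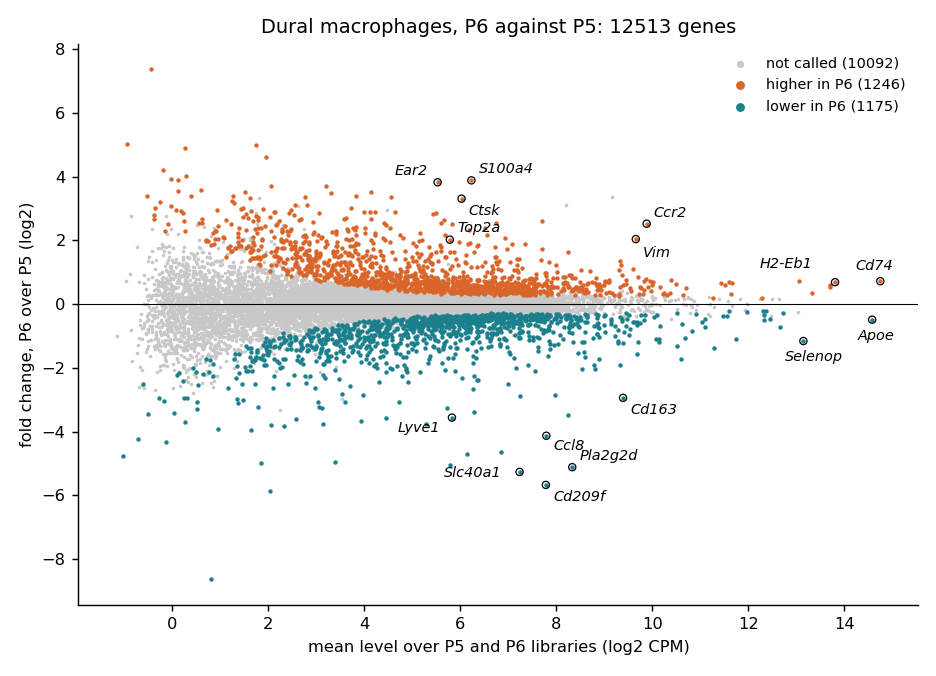
Log2 fold change of P6 over P5 (vertical axis) against the mean level over both marks in log2 CPM (horizontal axis), with 1 point for each of 12513 tested genes. Orange points are the 1246 genes higher in P6, teal points the 1175 lower and grey points those not called, and Cd209f at -5.67 lies below every other labelled gene.

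The sort was checked against genes that most macrophages share. Csf1r, the receptor for the growth factor that keeps macrophages alive, stood at 5121, 6005 and 6710.2 CPM in P5 and at 4001, 4328 and 4482 CPM in P6 (log2 fold change -0.48, adjusted p = 0.00304). Lyz2, which encodes lysozyme, stood at 9316, 8542 and 9141 CPM in P5 and 11494, 11245 and 12045 CPM in P6 (log2 fold change 0.36, adjusted p = 0.00056). Both marks held these genes at high levels, and Adgre1 (F4/80), Fcgr1 (CD64) and Cd68, looked up after the values were seen, had log2 fold changes of -0.17, -0.11 and 0.10 with adjusted p of 0.167, 0.404 and 0.427. Adgre1 passed without P5 library 1 (adjusted p = 0.0272). Of 18 pan-macrophage genes, 4 were higher and 4 lower in P6, and without P6 library 3 or without P6 library 4 the number lower was 2.

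Markers of other cell types were read in the same libraries. Cd3e, Cd3d and Cd3g, which define T cells, had mean levels of 0.102, 0.214 and 0.181 CPM in P5 and of 0.200, 0.228 and 0.0819 CPM in P6, and 3 of 17 T cell genes had enough counts to be tested. Of these 3, 1 was higher in P6 (none without P5 library 3) and 1, Cd4, was lower. Of 4 natural killer and innate lymphoid cell genes tested, Klrk1 (log2 fold change 0.74, adjusted p = 0.0196, which was 0.0584 to 0.0814 without P5 library 3, P5 library 4 or P6 library 3) and Areg (2.62, adjusted p = 0.00169) were higher in P6, and the summed level of the list ran from 63.5 to 69.2 CPM in P5 and from 78.0 to 85.9 CPM in P6. Ncr1, a defining member, had 0 counts over these 6 libraries, which allows a level of up to 0.0343 CPM for counting error alone. B cell and plasma cell genes were lower for 1 of 6 tested, their summed level was 574 to 624 CPM in P5 and 454 to 493 CPM in P6, and most of it came from Ighm, at 457, 510.0 and 465 CPM in P5 and 394, 416 and 422 CPM in P6. Endothelial genes were lower for 1 of 15 tested (6.67%, against 9.39% of all tested genes). Their summed level was 206 to 408 CPM in P5, and P6 library 3 stood apart at 605 CPM, against 121 and 154 CPM in P6 libraries 1 and 4, with Vwf at 7.87, 268 and 16 CPM in P6. Without P6 library 3, 6 endothelial genes were lower, and none was without P5 library 1 or 3. Of 21 fibroblast and collagen genes tested, 12 were lower in P6 and none was higher, with a median log2 fold change of -1.03. The summed level of the fibroblast list ran from 2057 to 2417 CPM in P5 and from 883 to 1331 CPM in P6, and from 5800 to 10030 CPM in P4. Of 6 mast cell and basophil genes tested, 3 were lower (1 without P5 library 1), and their summed level ran from 17.6 to 40.8 CPM in P5 and from 4.59 to 8.22 CPM in P6. Col1a1, the main chain of type I collagen, stood at 208, 281 and 247 CPM in P5 and 127, 145 and 90.5 CPM in P6. The fibroblast signal moved with the genes that were lower in P6, and its part in them was not tested. In bulk libraries, fewer cells of a type and less RNA per cell cannot be told apart.

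The 4 genes given as markers with the comparison separated the marks in every library. They came with the comparison, so their levels describe it and are no independent support. Of all tested genes, 37% also showed no overlap between the 3 P6 and the 3 P5 libraries. Ccr2 (ENSMUSG00000049103, chr9:124101950-124113557 in GRCm38, plus strand) stood at 290.0, 285 and 260.3 CPM in P5 and at 1694, 1533 and 1588 CPM in P6. The P6 libraries were all above the P5 libraries (log2 fold change 2.52 ± 0.09 SE, adjusted p = 1.31e-07), and P4 was lower than both at 107, 49.8 and 34.7 CPM. S100a4 (ENSMUSG00000001020, chr3:90603771-90606045, plus strand) stood at 12, 9.70 and 7.27 CPM in P5 and 149, 125 and 147 CPM in P6 (log2 fold change 3.88 ± 0.18, adjusted p = 8.74e-07). Its P4 levels of 12.6, 5.48 and 13.5 CPM overlapped those of P5.

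Cd209f (ENSMUSG00000051906, chr8:4102787-4105835, minus strand) encodes a C-type lectin related to DC-SIGN. Its level was 398, 439 and 456 CPM in P5 and 8.83, 8.27 and 8.40 CPM in P6, a log2 fold change of -5.67 ± 0.12 (adjusted p = 2.43e-09). The 3 P6 libraries agreed within 1 CPM, and P4 stood at 559, 546 and 493 CPM. Cd163 (ENSMUSG00000008845, chr6:124304656-124330527, plus strand) encodes the receptor for hemoglobin bound to haptoglobin. It stood at 921, 1229 and 1403 CPM in P5 and 165, 147 and 153 CPM in P6 (log2 fold change -2.94 ± 0.15, adjusted p = 9.88e-07), with 1364, 1438 and 1599 CPM in P4.

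**Figure D2:**
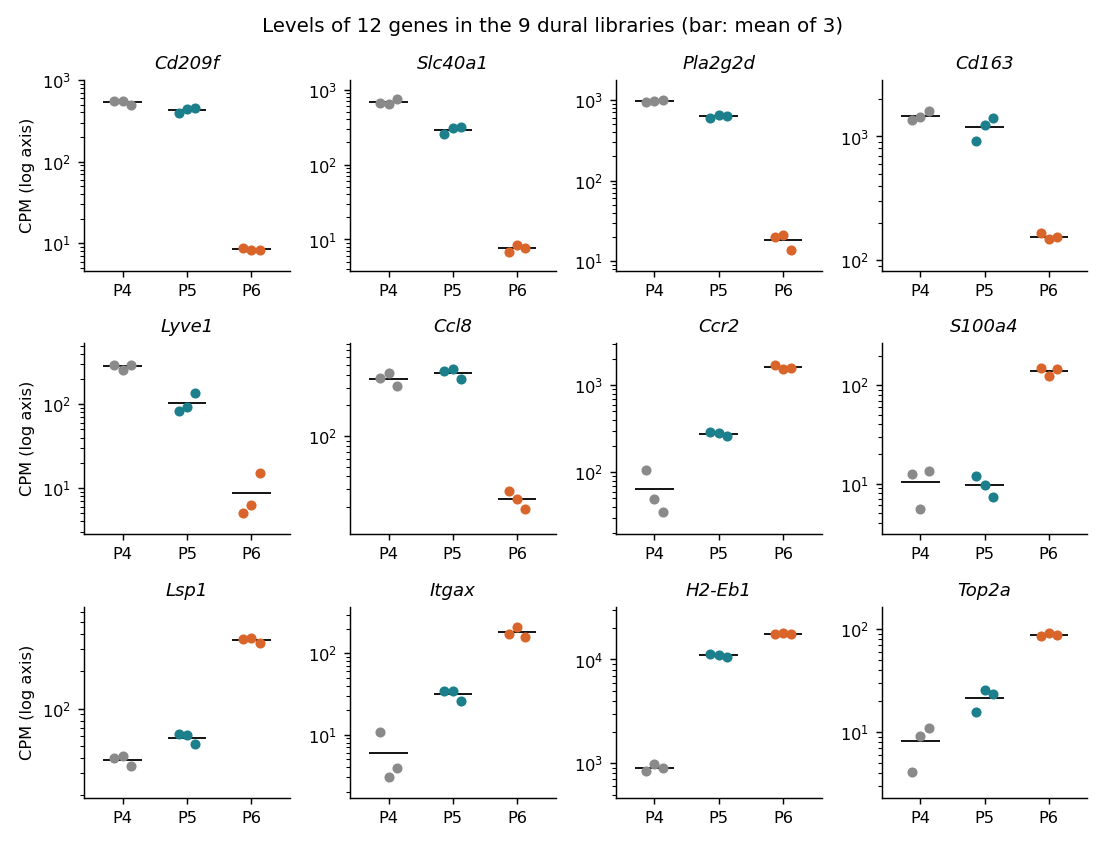
Level of 12 genes in CPM (vertical axes, logarithmic) in the dural libraries marked P4, P5 and P6 (horizontal axes), with 1 point per library and a bar at the mean of 3. Cd209f, Slc40a1, Pla2g2d, Cd163, Lyve1 and Ccl8 were lower in all P6 libraries than in all P5 and P4 libraries, and Ccr2, S100a4, Lsp1, Itgax, H2-Eb1 and Top2a were higher.

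The LYVE1-type list collects genes of resident perivascular and border macrophages. Of its 31 tested members, 30 were lower in P6 and none was higher, with a median log2 fold change of -2.04. They include Cd163 and Cd209f, given as markers with the comparison. The summed level of the list ran from 36900 to 41020 CPM in P5 and from 15670 to 16560 CPM in P6, while P4 ran from 42040 to 45860 CPM. The exception was Mgl2, a lectin for galactose-type sugars, named after its values were seen, at 1361, 1259 and 1158 CPM in P5 and 1482, 1387 and 1149.6 CPM in P6 (log2 fold change 0.08 ± 0.11, adjusted p = 0.658). A further listed gene, Vsig4, was below the count filter at mean levels of 1.45 CPM in P5 and 0.292 CPM in P6.

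Lyve1 itself, which encodes a receptor for hyaluronan, stood at 83.8, 92.4 and 137 CPM in P5 and 5.02, 6.23 and 15.2 CPM in P6 (log2 fold change -3.56 ± 0.35, adjusted p = 7.21e-05). The P6 libraries differed among themselves, library 4 being the highest, and none reached the P5 range. Folate receptor beta (Folr2, named after its values were seen) stood at 407, 400.4 and 507 CPM in P5 and 55.8, 51.8 and 75.4 CPM in P6 (log2 fold change -2.85). Timd4, a receptor for phosphatidylserine on dying cells, stood at 31.4, 41.4 and 48.1 CPM in P5 and 0.346, 2.87 and 6.85 CPM in P6 (adjusted p = 0.0015). Cd38, an enzyme that consumes NAD, was at 194, 224 and 244 CPM in P5 and 6.49, 11.1 and 9.25 CPM in P6, a log2 fold change of -4.63 ± 0.18. Selenop, the selenium transport protein, fell from 13213, 11887 and 12332 CPM to 5585, 5375 and 5904 CPM (log2 fold change -1.16, adjusted p = 9.24e-07), and Cbr2, a carbonyl reductase, from 1057, 949 and 1031 CPM to 273, 252 and 292 CPM.

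C-type lectins and Siglecs recognise sugars on microbes and on cells. Of 30 tested, 12 were lower and 8 higher in P6. The lower ones held 4 genes of the Cd209 cluster on chromosome 8, whose sequences are alike, so reads may be split among them. Cd209a, listed with the dendritic cell genes and looked up after the values were seen, was not called (log2 fold change 0.08, adjusted p = 0.768). Its mean level was 64.3 CPM in P5 and 68.4 CPM in P6. Cd209g stood at 104, 109 and 109 CPM in P5 and 4.24, 2.13 and 3.39 CPM in P6 (log2 fold change -5.05), Cd209b at 135, 126 and 143 CPM in P5 and 7.01, 2.95 and 5.65 CPM in P6 (-4.70), and Cd209d at 19.9, 17.9 and 17.7 CPM in P5 and 4.15, 2.62 and 4.10 CPM in P6 (-2.36). Clec4n (dectin-2), a receptor for fungal mannans, stood at 233, 234 and 221 CPM in P5 and 59.4, 60.0 and 52.8 CPM in P6. Mrc1, the mannose receptor CD206, had a smaller change, from 3796, 4673 and 5445 CPM to 2152, 2117 and 2267 CPM (log2 fold change -1.10 ± 0.11, adjusted p = 6.52e-05).

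Iron and heme genes were lower in P6 for 11 of 16 tested members and higher for none. Slc40a1 (chr1:45908068-45926523, minus strand) encodes ferroportin, the exporter through which macrophages release iron. It stood at 258, 308 and 314 CPM in P5 and at 6.84, 8.44 and 7.70 CPM in P6 (log2 fold change -5.26 ± 0.13, adjusted p = 1e-08), with P4 above both at 658, 640.1 and 752 CPM. Ceruloplasmin (Cp), which oxidises exported iron, stood at 217, 273 and 319 CPM in P5 and 71.5, 70.9 and 74.1 CPM in P6 (log2 fold change -1.91). The other members that fell included the biliverdin reductase Blvrb (-1.14), the heme oxygenase Hmox1 (-0.59), the transferrin receptor Tfrc (-1.14), the ferritin cargo receptor Ncoa4 (-1.16) and Spic (-1.41), a transcription factor of iron-recycling macrophages, all as log2 fold changes.

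Scavenger receptors fell for 7 of 17 tested members and rose for 2, which became 1 without any 1 P5 library or without P6 library 3 or 4. Stab1, an endocytic receptor of resident macrophages, stood at 2653, 3381 and 4667 CPM in P5 and 1258, 1329.8 and 1589 CPM in P6 (log2 fold change -1.36, adjusted p = 0.000349). Its P5 libraries spread widely without overlapping P6. Cd36, a receptor for oxidised lipids and fatty acids, was at 743, 786 and 842 CPM in P5 and 397, 393 and 408 CPM in P6 (log2 fold change -0.99). Among genes for the uptake of dying cells, 8 of 19 were lower and 8 higher, the latter count being 5 without P5 library 3 or P6 library 1 and 4 without P6 library 3. Gas6, the bridging ligand of the TAM receptors, stood at 1149, 1205 and 1301 CPM in P5 and 382, 438 and 409 CPM in P6 (log2 fold change -1.58 ± 0.09). Its receptors moved in different directions, Mertk at 131, 180.0 and 192 CPM in P5 and 81.2, 91.3 and 108 CPM in P6 (log2 fold change -0.85) and Axl at 1302, 1407 and 1404 CPM in P5 and 1927, 2018 and 1910.0 CPM in P6 (log2 fold change 0.50).

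Complement genes were lower for 10 of 19 tested members and higher for 2. The higher ones were the integrin chains Itgax and Itgb2 of the complement receptors. C4b, the central component of the classical and lectin pathways, stood at 409.8, 587 and 663 CPM in P5 and 41.5, 56.6 and 49.9 CPM in P6 (log2 fold change -3.49 ± 0.19, adjusted p = 1.41e-06). C2, its partner in the C3 convertase, stood at 8.21, 11.3 and 8.51 CPM in P5 and 0.952, 0.246 and 0.777 CPM in P6, and Cd55, which breaks that convertase down, at 16.9, 20.2 and 24.0 CPM in P5 and 1.82, 0.246 and 0 CPM in P6. The lectin-pathway ficolin Fcna was at 21.4, 28.8 and 35.0 CPM in P5 and 2.86, 1.97 and 1.91 CPM in P6. C1qa and C1qc, the first component's subunits, changed by -0.22 and -0.26 on the log2 scale. The C1qa call was lost without P5 library 3, P6 library 1, P6 library 3 or P6 library 4, with adjusted p from 0.0647 to 0.137. With all libraries kept it was lost with DESeq2 (adjusted p = 0.0549), upper-quartile scaling factors (0.0559) or no filter (0.0658). The C1qc call was lost without P6 library 3 or 4 (adjusted p = 0.0614 and 0.0608).

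Growth factor genes were lower for 9 of 20 tested members and higher for 4. Igf1 stood at 604, 593 and 594 CPM in P5 and 148, 160.5 and 130.1 CPM in P6 (log2 fold change -2.04 ± 0.10, adjusted p = 1.1e-06). Pdgfc, a growth factor for mesenchymal cells, stood at 42.0, 45.3 and 53.3 CPM in P5 and 6.14, 6.23 and 4.66 CPM in P6 (log2 fold change -3.06), while Pdgfb, of the same family, was at 85.8, 101 and 104 CPM in P5 and 171, 207 and 211 CPM in P6 (log2 fold change 1.00). Bmp2 fell from 216, 358 and 332 CPM to 58.7, 73.8 and 80.9 CPM (log2 fold change -2.09). The fibroblast list moved in the same direction as the lower genes here and in the complement list, at the summed levels given above. The part of the fibroblast signal in these genes was not tested.

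**Figure D3:**
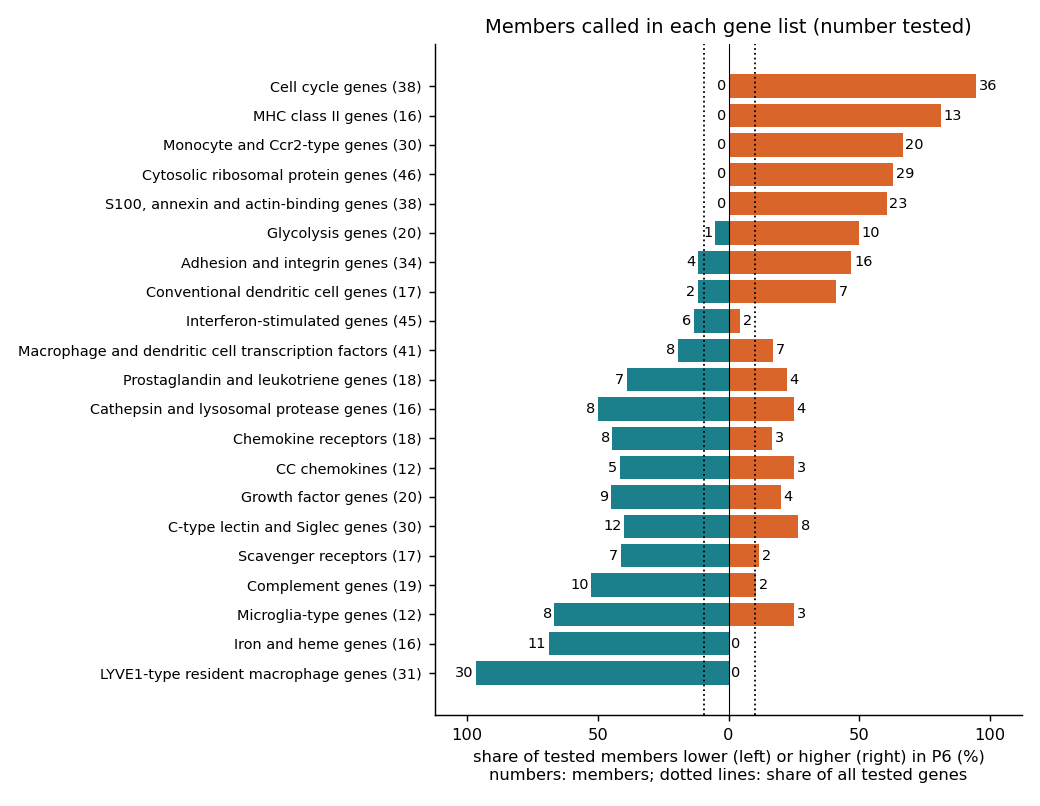
Share of the tested members of 21 gene lists that were lower (teal, to the left) or higher (orange, to the right) in P6, in percent (horizontal axis), with the number of members at each bar end and the number tested beside each name. Dotted lines mark the shares over all tested genes, 9.39% lower and 9.96% higher, and the LYVE1-type bar of 30 genes and the cell cycle bar of 36 genes reach farthest past them.

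CC chemokines divided into a lower and a higher set, 5 and 3 of 12 tested. The lower set held the eosinophil attractant Ccl24, at 144, 136 and 149 CPM in P5 and 11.4, 16.9 and 13.1 CPM in P6 (log2 fold change -3.38), and 4 genes of the monocyte chemoattractant protein family. Ccl8 had the largest change of these, from 435, 456 and 365 CPM to 28.6, 24.2 and 19.3 CPM (log2 fold change -4.13 ± 0.17, adjusted p = 2.84e-07). Ccl7, Ccl12 and Ccl2 had log2 fold changes of -1.17, -0.54 and -0.48, and Ccl2 stood at 1033, 1069 and 1068 CPM in P5 and 676, 802 and 801 CPM in P6. Ccl2, Ccl7 and Ccl12, whose products bind CCR2, were thus lower in the libraries in which Ccr2 was higher. The higher set held Ccl3, Ccl4 and Ccl9, with log2 fold changes of 0.61, 0.70 and 0.71. Of 11 CXC chemokines tested, 2 were higher and 1 lower in P6 (27.3% called, against 19.3% of all tested genes). The lower 1 was Pf4, a chemokine of resident macrophages and platelets, which fell from 1060.3, 865 and 868 CPM to 436, 384 and 382 CPM.

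Among chemokine and chemoattractant receptors, 8 of 18 were lower and 3 higher. Besides Ccr2, Cxcr4 was higher, at 211, 272 and 178 CPM in P5 and 391, 499 and 357 CPM in P6 (log2 fold change 0.91, adjusted p = 0.00396). The receptors that fell included Ccr1 (-0.98), the formyl peptide receptor Fpr1 (-2.30), the C5a receptor C5ar1 (-0.67) and the sphingosine phosphate receptor S1pr1 (-1.86), as log2 fold changes. S1pr1 stood at 132, 114 and 116 CPM in P5 and 35.3, 32.6 and 32.6 CPM in P6. Cx3cr1, looked up after the values were seen, was at 1361, 1435 and 1346 CPM in P5 and 1482, 1535 and 1671 CPM in P6, with a log2 fold change of 0.17 ± 0.07 that did not pass (adjusted p = 0.126).

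Of 14 cytokine genes tested, 2 were higher and 2 lower, the latter count being 1 without P5 library 3, P5 library 4, P6 library 1 or P6 library 3. The share called was 28.6%, against 19.3% of all tested genes (9.96% higher and 9.39% lower). Il10, which restrains macrophage activation, stood at 102, 129 and 122 CPM in P5 and 26.6, 45.4 and 56.8 CPM in P6 (log2 fold change -1.47 ± 0.22, adjusted p = 0.0011). Tnf stood at 127, 174 and 136 CPM in P5 and 232, 320.0 and 307 CPM in P6 (log2 fold change 0.97, adjusted p = 0.00129). Of 16 genes of the IL-1 family and the inflammasome, 5 were higher and 1 lower, the former count being 2 without P5 library 4 or P6 library 3. Il1b was at 394, 715 and 364 CPM in P5 and 775, 1467 and 951 CPM in P6 (log2 fold change 1.11 ± 0.27, adjusted p = 0.0176). Libraries numbered 3 were the highest of their mark for Il1b, and the call was lost without P5 library 1 (adjusted p = 0.0626), P5 library 4 (0.0581) or P6 library 3 (0.0661).

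The monocyte and Ccr2-type list holds genes of monocytes and of macrophages recently derived from them. Of 30 tested members, 20 were higher in P6 and none was lower, with a median log2 fold change of 1.33. The list includes Ccr2 and S100a4, given as markers with the comparison. Its summed level ran from 2911 to 3442 CPM in P5 and from 7326 to 7797 CPM in P6. Lsp1, an actin-binding protein of leukocytes, stood at 62.0, 60.9 and 52.0 CPM in P5 and 361, 368 and 341 CPM in P6 (log2 fold change 2.61 ± 0.11, adjusted p = 3.4e-07). Vim, the intermediate filament protein vimentin, was at 338, 331 and 273 CPM in P5 and 1288, 1368 and 1233 CPM in P6 (log2 fold change 2.04). Lgals3, which encodes the sugar-binding protein galectin-3, stood at 79.6, 71.0 and 56.1 CPM in P5 and 284, 253 and 231 CPM in P6. Ly6c2, a gene that defines classical blood monocytes and was chosen after its values were seen, stood at 0, 2.30 and 0.812 CPM in P5 and 7.35, 10.6 and 5.30 CPM in P6 (log2 fold change 2.90, adjusted p = 0.0251, which was 0.0865 without P5 library 4 and 0.0894 without P6 library 3).

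S100, annexin and actin-binding genes were higher in P6 for 23 of 38 tested members and lower for none, with a median log2 fold change of 0.626. S100a6, the neighbour of S100a4 on chromosome 3, stood at 13.7, 10.4 and 8.98 CPM in P5 and 95.5, 75.2 and 67.1 CPM in P6 (log2 fold change 2.86 ± 0.19). Annexin A1 (Anxa1) was at 26.2, 28.0 and 22.2 CPM in P5 and 102, 95.9 and 100.1 CPM in P6, the actin-capping protein Capg at 51.9, 46.2 and 41.9 CPM in P5 and 218, 203 and 174 CPM in P6, and the actin cross-linker filamin A (Flna) at 317, 388 and 387 CPM in P5 and 884, 920.0 and 968 CPM in P6. Their log2 fold changes were 1.96, 2.08 and 1.34. Adhesion and integrin genes were higher for 16 of 34 and lower for 4. The hyaluronan receptor Cd44 stood at 59.9, 59.0 and 53.7 CPM in P5 and 192, 212 and 235 CPM in P6 (log2 fold change 1.88), and Alcam at 14.8, 13.3 and 13.4 CPM in P5 and 97.1, 82.1 and 80.9 CPM in P6 (log2 fold change 2.64). Against that direction, Vcam1, the ligand of the integrin VLA-4, fell from 726, 761 and 654 CPM to 192, 166 and 164 CPM (log2 fold change -2.04, adjusted p = 1.2e-06).

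MHC class II genes were higher in P6 for 13 of 16 tested members and lower for none, with a median log2 fold change of 0.674. Summed over the list, P4 ran from 7923 to 8482 CPM, P5 from 54650 to 58900 CPM and P6 from 88350 to 92950 CPM. Cd74, the invariant chain that guides class II molecules to the endosome, stood at 20984, 21009 and 20118 CPM in P5 and 33360.4, 35595 and 33691 CPM in P6 (log2 fold change 0.72 ± 0.04, adjusted p = 1.18e-06). The chain genes H2-Eb1, H2-Ab1 and H2-Aa had log2 fold changes of 0.69, 0.61 and 0.53. H2-Eb1 stood at 838, 989 and 910.4 CPM in P4, 11195, 11078 and 10496 CPM in P5 and 17698, 17895 and 17427 CPM in P6. H2-DMb2, a subunit of the peptide-exchange chaperone, was at 11.3, 9.95 and 10.2 CPM in P5 and 21.6, 36.0 and 33.4 CPM in P6 (log2 fold change 1.53), and shares sequence with H2-DMb1. Ctss, the protease that trims the invariant chain, was at 2666, 2554 and 2277 CPM in P5 and 4014, 4076 and 3816 CPM in P6 (log2 fold change 0.66).

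The coactivator Ciita, named with the next genes after its values were seen, stood at 127, 138 and 173 CPM in P5 and 199, 225 and 244 CPM in P6 (log2 fold change 0.60 ± 0.13, adjusted p = 0.00788). The members that were not called, Rfx5, Rfxap and Rfxank, encode the DNA-binding complex that recruits it and had log2 fold changes of 0.16, -0.25 and -0.03. Of the MHC class I presentation genes, 2 of 21 were higher (9.52%, near the 9.96% of all tested genes) and none lower. Their median log2 fold change was 0.156. Tap1, the peptide transporter subunit, was at 182, 191 and 189 CPM in P5 and 259, 276 and 269 CPM in P6. Only 1 class I gene was higher without P5 library 4 or without P6 library 3. Costimulation and checkpoint genes were higher for 3 of 13 and lower for 3. The costimulatory ligand Cd86 fell from 262, 277 and 277 CPM in P5 to 142, 155 and 169.9 CPM in P6 (log2 fold change -0.81, adjusted p = 0.000216), while the ligands Icosl and Tnfsf9 rose, with log2 fold changes of 0.52 and 1.32. The Icosl call was lost without P5 library 3 (adjusted p = 0.0798) or P6 library 4 (0.0637).

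Promoter sequences of class II and cell cycle genes are shown because the letters GATTGG, the CCAAT box read on the opposite strand and the sequence bound by the factor NF-Y, are known from both groups. RefSeq's table of GRCm38.p6 gives 300 bases per gene, from 250 before the start site to 50 after it. Letters in capitals mark GATTGG or its reverse complement CCAATC, and, in the cell cycle genes, also TTTGAA or TTCAAA, the letters of the cell cycle homology region. Each promoter is written 5′ to 3′ on the strand of its gene. The class II promoters are those of H2-Aa (chr17:34287774-34288073, minus strand), H2-Eb1 (chr17:34305617-34305916, plus strand) and H2-DMb2 (chr17:34144999-34145298, plus strand).
H2-Aa: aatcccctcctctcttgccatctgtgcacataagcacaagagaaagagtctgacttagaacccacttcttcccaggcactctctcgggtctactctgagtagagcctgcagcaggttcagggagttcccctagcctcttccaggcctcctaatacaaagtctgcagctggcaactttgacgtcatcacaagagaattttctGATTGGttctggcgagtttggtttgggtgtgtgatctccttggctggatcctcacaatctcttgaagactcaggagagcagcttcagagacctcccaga
H2-Eb1: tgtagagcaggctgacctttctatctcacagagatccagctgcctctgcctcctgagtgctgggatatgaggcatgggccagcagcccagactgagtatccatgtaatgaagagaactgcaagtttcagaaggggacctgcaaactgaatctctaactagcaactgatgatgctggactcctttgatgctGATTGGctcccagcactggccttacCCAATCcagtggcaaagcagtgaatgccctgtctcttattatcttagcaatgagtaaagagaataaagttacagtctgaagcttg
H2-DMb2: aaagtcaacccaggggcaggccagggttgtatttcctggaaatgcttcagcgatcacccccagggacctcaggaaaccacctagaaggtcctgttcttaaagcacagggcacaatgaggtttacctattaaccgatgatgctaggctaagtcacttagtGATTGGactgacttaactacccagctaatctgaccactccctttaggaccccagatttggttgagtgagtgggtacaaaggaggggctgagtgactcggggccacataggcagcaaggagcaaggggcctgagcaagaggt
The cell cycle promoters are those of Top2a (chr11:99024140-99024439, minus strand) and Ccnb2 (chr9:70421505-70421804, minus strand).
Top2a: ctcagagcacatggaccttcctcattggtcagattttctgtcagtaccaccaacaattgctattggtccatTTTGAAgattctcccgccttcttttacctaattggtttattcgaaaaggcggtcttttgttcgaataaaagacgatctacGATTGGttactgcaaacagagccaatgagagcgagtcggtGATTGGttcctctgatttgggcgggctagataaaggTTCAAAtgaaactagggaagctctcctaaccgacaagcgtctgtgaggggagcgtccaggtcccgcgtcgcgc
Ccnb2: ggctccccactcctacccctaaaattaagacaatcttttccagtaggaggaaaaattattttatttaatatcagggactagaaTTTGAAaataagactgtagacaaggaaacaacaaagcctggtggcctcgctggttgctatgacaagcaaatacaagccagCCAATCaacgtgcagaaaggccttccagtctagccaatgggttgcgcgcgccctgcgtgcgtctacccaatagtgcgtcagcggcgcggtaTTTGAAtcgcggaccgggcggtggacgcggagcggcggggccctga
In H2-Aa the marked letters begin 49 bases before the start site, in H2-DMb2 91 bases before it, and in H2-Eb1 60 and 35 bases before it. Top2a holds GATTGG 99 and 59 bases before its start site, and Ccnb2 holds it on the opposite strand 87 bases before. GATTGG on either strand was found in 9 of 12 class II promoters in the table, in 19 of 30 cell cycle promoters and in 16.6% of all 27025 genes' promoters (21.1% of the 9717 tested genes with a promoter). It was found in 2 of 26 LYVE1-type promoters and 2 of 22 monocyte and Ccr2-type promoters. TTTGAA on either strand was found in 15 of 30 cell cycle promoters, in none of the 12 class II promoters and in 18.1% of all promoters (12% of those of tested genes). Of the other letters searched, GAGGAAG was found in 9 of 26 LYVE1-type promoters (34.6%, against 13.6% of those of tested genes), and GGAAGT in 17 of 34 promoters of the S100, annexin and actin-binding list (50%, against 29.5%), both picked after their shares were seen. These shares describe letters in a window and not bound sites. Of 16 motifs searched on both strands with the results known, the rest were ATTGG and the Y box letters CTGATTGG (both overlapping GATTGG), the variant TTCGAA of the homology region, the Maf site letters TGCTGAC, the ETS letters GAGGAAG and also GGAAGT, the AP-1 letters TGACTCA, the cyclic AMP response element TGACGTCA, the E2F letters GGCGGGAA and also TTGGCGGG or else TTTGGCGC or else TTTCCCGC, the kappa B site and the interferon-stimulated response element.

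Cell cycle genes were higher in P6 for 36 of 38 tested members, with a median log2 fold change of 1.52. Their summed level ran from 512 to 549.5 CPM in P5 and from 1191 to 1241 CPM in P6, and from 382 to 476 CPM in P4. Top2a, the topoisomerase of dividing cells, stood at 15.8, 25.4 and 23.5 CPM in P5 and 85.5, 92.0 and 87.4 CPM in P6 (log2 fold change 2.02 ± 0.16, adjusted p = 1.74e-05). The replication helicase subunit Mcm5 was at 25.7, 25.7 and 28.7 CPM in P5 and 75.5, 89.0 and 83.8 CPM in P6 (log2 fold change 1.62), and the ribonucleotide reductase subunit Rrm2 at 4.41, 6.41 and 4.57 CPM in P5 and 26.7, 21.5 and 20.9 CPM in P6 (log2 fold change 2.16). Genes of mitosis were also higher, with Ccnb2 (cyclin B2) at 6.80, 6.99 and 5.17 CPM in P5 and 26.9, 21.1 and 21.2 CPM in P6 and the spindle motor Kif11 at 5.12, 4.93 and 5.47 CPM in P5 and 20.9, 20.6 and 23.4 CPM in P6. Genes of DNA synthesis and of mitosis were thus both higher. The members not called, named after their values were seen, were Cenpf (log2 fold change -0.08) and H2afz (0.61, adjusted p = 0.065, which was 0.00523 without P5 library 1). Outside the list, the replication nuclease Dna2 and the transcription factor E2f2 were among the 15 genes with the largest rise at a mean of at least 20 CPM, with log2 fold changes of 2.69 and 2.68.

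**Figure D4:**
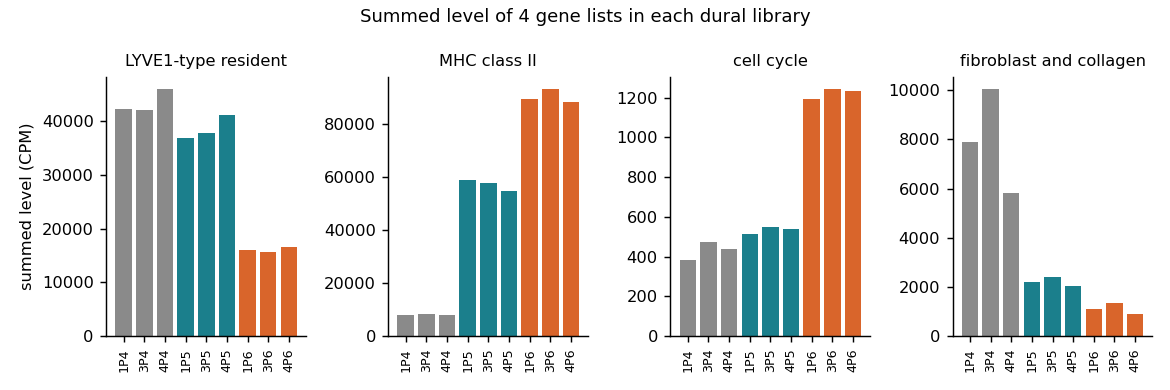
Summed level in CPM (vertical axes) of 4 gene lists in each of the 9 dural libraries (horizontal axes), with grey bars for P4, teal for P5 and orange for P6. The LYVE1-type sum is lower in P6 (15670 to 16560 CPM) than in P5 and P4, the class II and cell cycle sums are higher, and the fibroblast sum is lower in P6 (883 to 1331 CPM) than in P5.

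Conventional dendritic cell genes were higher for 7 of 17 tested members and lower for 2. Itgax, which encodes the integrin chain CD11c, stood at 34.2, 34.1 and 25.9 CPM in P5 and 175, 208 and 161 CPM in P6 (log2 fold change 2.53 ± 0.15, adjusted p = 2.36e-06). Flt3, the growth factor receptor of dendritic cells, was at 1.85, 1.64 and 1.71 CPM in P5 and 8.57, 11.2 and 13.5 CPM in P6, Clec9a, a receptor of cross-presenting dendritic cells, at 2.91, 4.69 and 5.43 CPM in P5 and 18.7, 16.9 and 15.7 CPM in P6, and the peptidase Dpp4 at 3.27, 5.26 and 3.76 CPM in P5 and 25.8, 38.7 and 27.7 CPM in P6. Zbtb46, a transcription factor that separates dendritic cells from macrophages, moved the other way, from 9.09, 13.2 and 15.4 CPM to 4.33, 3.44 and 4.24 CPM (log2 fold change -1.66, adjusted p = 0.0015), as did Kmo (log2 fold change -1.22). The chemokine receptor Xcr1, looked up after the values were seen, stayed at or under 1.72 CPM in these libraries. Of 11 migratory dendritic cell genes, 3 were lower and 1 higher, 2 being higher without P6 library 1 or P6 library 4, and Fscn1, the actin-bundling protein fascin, fell from 52.1, 75.4 and 59.2 CPM to 18.0, 17.2 and 17.4 CPM. The summed level of the conventional dendritic cell list was 1194 to 1304 CPM in P5 and 1594 to 1718 CPM in P6, and the part of such cells in the class II result was not tested.

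Transcription factors of macrophages and dendritic cells were called for 15 of 41, 8 lower and 7 higher. Maf, which sets the resident macrophage state in several tissues, stood at 1489.8, 1682 and 1428 CPM in P5 and 656, 758 and 761 CPM in P6 (log2 fold change -1.09 ± 0.09, adjusted p = 2.33e-05). Tfec, of the MiT family, had the largest fall, from 32.7, 34.3 and 32.3 CPM to 4.76, 6.63 and 6.99 CPM (log2 fold change -2.44). Bhlhe40, a repressor that includes Il10 among its known targets, stood at 19.9, 25.2 and 17.4 CPM in P5 and 62.0, 90.1 and 72.8 CPM in P6 (log2 fold change 1.85), and Runx3 at 30.1, 27.5 and 25.0 CPM in P5 and 69.4, 83.6 and 76.2 CPM in P6 (log2 fold change 1.47). Of 6 interferon regulatory factor genes in the list, Irf1 was lower (log2 fold change -0.78), Irf5 was higher (0.54) and Irf2, Irf4, Irf7 and Irf8 were not called (0.16, -0.01, 0.36 and -0.14). Interferon-stimulated genes were called for 8 of 45 (17.8%), near the 19.3% of all tested genes. Of these, 6 were lower and 2 higher, the latter count being 1 without P5 library 4 or any P6 library. The GTPase Iigp1 stood at 115, 118 and 114 CPM in P5 and 38.8, 35.9 and 37.5 CPM in P6.

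Genes known from microglia, the macrophages of the brain itself, did not move together. Of 12 tested, 8 were lower and 3 higher. Siglech stood at 127, 138 and 132 CPM in P5 and 22.0, 23.3 and 17.9 CPM in P6 (log2 fold change -2.66), and Fcrls at 1997, 2103 and 2178 CPM in P5 and 827, 847 and 862 CPM in P6 (log2 fold change -1.31). The purine receptors P2ry12 and P2ry13 were also lower, with log2 fold changes of -0.69 and -1.12. Among the higher ones, Tmem119 stood at 77.9, 53.0 and 52.8 CPM in P5 and 138, 132 and 154 CPM in P6 (adjusted p = 0.000453), and Olfml3 had a log2 fold change of 0.85.

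Lipid mediator and lysosomal genes were also called in both directions. Of 18 prostaglandin and leukotriene genes, 7 were lower and 4 higher, the latter count being 2 without P5 library 4 or P6 library 3. Ltc4s, the synthase of leukotriene C4, stood at 47.3, 44.2 and 48.9 CPM in P5 and 12.5, 11.3 and 9.89 CPM in P6 (log2 fold change -2.07), and Ltb4r1, the receptor for leukotriene B4, at 1.85, 1.32 and 1.24 CPM in P5 and 13.4, 13.9 and 10.2 CPM in P6 (log2 fold change 3.09). Pla2g2d, a secreted phospholipase, was among the 15 genes with the largest fall at a mean of at least 20 CPM, from 595, 657 and 623 CPM to 19.8, 21.1 and 13.6 CPM (log2 fold change -5.11 ± 0.17, adjusted p = 1.22e-07). Cathepsin and lysosomal protease genes were lower for 8 of 16 and higher for 4. Ctsb fell from 7782, 7971 and 8247 CPM to 4734, 4969 and 4891 CPM (log2 fold change -0.72) and Ctsd, Ctsl and Ctsf were also lower, while Ctsk and Ctss were higher. Ctsk, known best as the collagen-degrading protease of osteoclasts, stood at 37.1, 38.7 and 56.2 CPM in P4, 8.56, 14.1 and 12.8 CPM in P5 and 121, 145 and 88.7 CPM in P6 (log2 fold change 3.31 ± 0.22, adjusted p = 6.23e-06), so P5 was the lowest of the 3 marks.

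**Figure D5:**
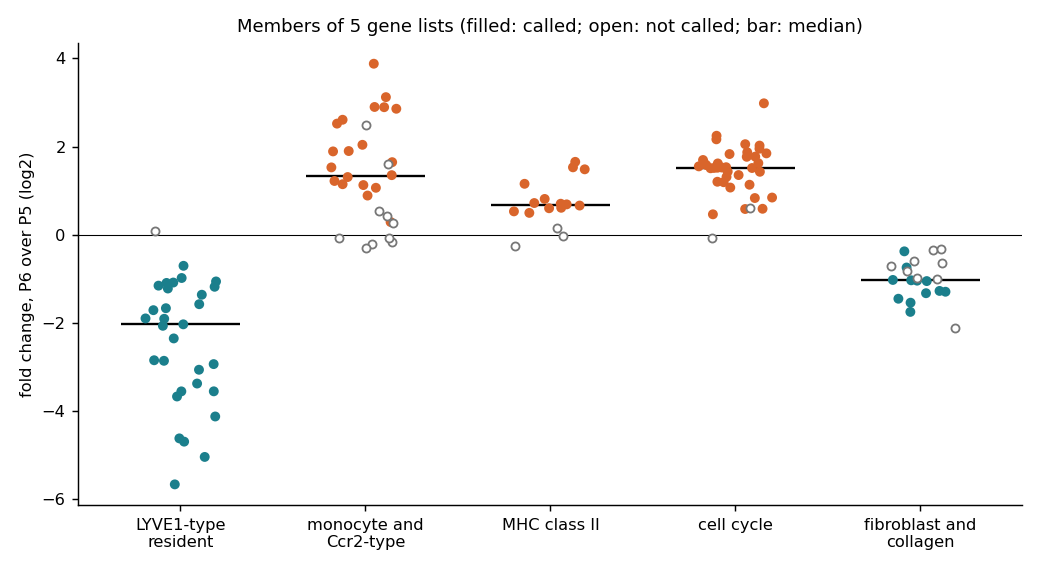
Log2 fold change of P6 over P5 (vertical axis) for each tested member of 5 gene lists (horizontal axis), filled where the gene was called and open where it was not, with a bar at the list's median. The medians are -2.04 for the LYVE1-type list, 1.33 for the monocyte and Ccr2-type list, 0.674 for class II, 1.52 for cell cycle and -1.03 for fibroblast and collagen genes.

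Of 20 glycolysis genes, 10 were higher and 1 lower, with a median log2 fold change of 0.457. Eno1 (enolase) stood at 78.2, 74.8 and 71.3 CPM in P5 and 138, 122 and 123 CPM in P6 (log2 fold change 0.77), and the pyruvate kinase Pkm at 274, 281 and 269 CPM in P5 and 415, 398 and 368 CPM in P6 (log2 fold change 0.51). The lactate exporter Slc16a3 was at 9.62, 8.22 and 6.16 CPM in P5 and 25.4, 27.0 and 23.3 CPM in P6 (log2 fold change 1.66). The member that fell was the hexokinase Hk3 (log2 fold change -0.61). Oxidative phosphorylation genes were higher for 9 of 26 and lower for none, but this number was 3 without P5 library 3, P5 library 4, P6 library 1 or P6 library 3 and 15 without P5 library 1. Cholesterol synthesis and uptake genes were higher for 5 of 21 (23.8%, against 9.96% of all tested genes) and lower for none. The number higher was 1 without P5 library 3, 2 without P6 library 1 or 3, and 3 without P6 library 4. Cytosolic ribosomal protein genes were higher for 29 of 46 and lower for none (16 higher without P5 library 3 and 39 without P5 library 1). Many of them have near-identical processed copies in the genome, so their counts are uncertain.

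Among the 15 genes with the largest change in each direction at a mean of at least 20 CPM, those not yet described came from several families. Among those that rose were Ear2, a ribonuclease of the eosinophil-associated family, at 4.32, 9.29 and 4.83 CPM in P5 and 98.3, 92.6 and 67.0 CPM in P6 (log2 fold change 3.82), the orphan receptor Gpr141 at 3.27, 2.55 and 2.69 CPM in P5 and 41.1, 31.0 and 25.1 CPM in P6, and the lectin-like receptor Klrb1b at 3.44, 2.88 and 1.28 CPM in P5 and 29.4, 28.0 and 19.9 CPM in P6. Sirpb1a stood at 4.15, 4.77 and 3.76 CPM in P5 and 43.8, 39.8 and 45.5 CPM in P6. Ear2 and Sirpb1a have close paralogs with which reads may be shared. The 15 also held Sh2d1b2, Adam8, Napsa and Tnip3, with log2 fold changes of 3.02, 2.90, 2.89 and 2.88. Among those that fell, Tln2 (talin 2) stood at 50.1, 80.9 and 85.7 CPM in P5 and 4.93, 4.34 and 6.57 CPM in P6 (log2 fold change -3.77), and Gprc5c, an orphan receptor, at 93.1, 81.8 and 112 CPM in P5 and 13.1, 9.17 and 8.12 CPM in P6 (log2 fold change -3.26).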

How the data were processed

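Bulk RNA-seq of macrophages sorted from dura was used. Per the submitters' processing notes, reads were handled on GRCm38 with STAR 2.4.0j, with featureCounts and with DESeq2 1.20.0, in no stated order. The deposited table is called normalised by the authors but holds whole-number counts per gene with unequal totals, and was read as raw counts. The 15 diaphragm columns were not used. Column names give tissue, number and mark.

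Genes passing filterByExpr were compared as P6 minus P5 by edgeR's quasi-likelihood test with TMM factors and no other term (edgeR 4.0.16, R 4.3.3), two-sided, Benjamini-Hochberg adjusted over all 12513 tested genes, threshold 0.05. Levels are CPM with TMM factors over the 9 dural libraries. The fit was tested on simulated data, where 66% of genes changed by 1 on the log2 scale and 88% of those changed by 2 were called at 12296 genes. There, 12 unchanged genes were also called. Changed genes were drawn only from those above a minimum mean count, so the rates do not cover genes with few counts. The kit was unstranded, so reads of overlapping genes cannot be told apart. Symbols and positions came from a table of Ensembl names and GENCODE, promoters from RefSeq.

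The comparison, its members and the 51 gene lists were chosen with earlier results of these data known. Lists share genes, such as Itgax in the dendritic cell and complement lists, so their counts are not independent. Genes were named by rule: the 4 markers; the 15 largest called changes in each direction without overlap and with a mean of at least 20 CPM; up to 8 called members per list by p; and 5 abundant genes (at least 200 CPM) per direction. Others were chosen after their values were seen, and some genes that the rule names are not reported here. The numbers 1, 3 and 4 were not taken to pair the libraries, and P4 levels are given as a description with no test.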

Additional observations from a re-analysis of the deposited data

How the results depend on the processing

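In each of 15 alternatives, all genes called both there and in the reported test had the same direction. The total of 2421 ran from 2299 to 2783 with RLE, upper-quartile or no scaling factors, DESeq2, limma-voom, a filter of at least 1 CPM in 3 libraries, or all 9 dural libraries. It was 2886 with no filter. In that fit Ttr passed (adjusted p = 6.47e-167), although it was far higher in P6 library 1 than in the other P5 and P6 libraries. Leaving out 1 library gave 1454 to 2367 genes, 796 to 1248 higher and 658 to 1119 lower, the lowest values coming without P5 library 3. Of 145 genes named in the text and called, 139 were called under every alternative that tested them, the others being C1qa, C1qc, Icosl, Il1b, Klrk1 and Ly6c2. Klrk1 was also lost with no filter (adjusted p = 0.0529) and in the fit of all 9 dural libraries (0.156). Ly6c2 was lost with DESeq2 (adjusted p = 0.0996) and without P5 library 4 (0.0865) or P6 library 3 (0.0894). H2afz, not called, passed in 5 alternatives (adjusted p from 0.00523 to 0.0356), Adgre1 without P5 library 1 (adjusted p = 0.0272), Ighm with DESeq2 (0.0466) and Irf7 with no filter (0.0215). The log2 fold change of Vwf, not called, ran from -2.72 without P6 library 3 (adjusted p = 0.00703) to 0.85 without P6 library 1. At these depths, genes near 1 CPM rest on few counts per library.

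The numbers 1, 3 and 4 were checked for pairing. Deviations from the mark means of same-numbered libraries correlated across genes at 0.0866, 0.226 and 0.138, so they were not all over 0.1, although each library correlated best with its own number. With the number as a replicate block, 3348 genes were called, 1704 higher and 1644 lower in P6, and Adgre1, Cx3cr1, H2afz, Ighm and Irf7 passed.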

Other observations

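Genes known from osteoclasts, the bone-resorbing cells that arise from the macrophage lineage, stood in a list of bone genes, of which 5 of 11 tested genes were higher and 2 lower in P6. Besides Ctsk, Acp5, the tartrate-resistant acid phosphatase, stood at 56.9, 59.6 and 58.0 CPM in P5 and 178, 229 and 175 CPM in P6 (log2 fold change 1.73, adjusted p = 7.93e-06 by edgeR). The proton pump subunit Atp6v0d2 was at 20.8, 13 and 16.8 CPM in P5 and 50.3, 44.6 and 46.8 CPM in P6 (log2 fold change 1.48). The fusion genes Dcstamp and Ocstamp stayed at low levels, Dcstamp at 0.176, 0.247 and 0.171 CPM in P5 and 6.75, 4.42 and 8.19 CPM in P6 and Ocstamp at 0.441, 1.23 and 0.513 CPM in P5 and 6.92, 6.39 and 3.25 CPM in P6, and both passed the test. Mmp9, a gelatinase that osteoclasts also express, moved the other way, from 586, 716 and 879.8 CPM to 211, 217 and 236 CPM (log2 fold change -1.72, adjusted p = 1.74e-05). The mineralisation enzyme Alpl, a gene of bone-forming cells, was lower in P6 (log2 fold change -0.96).

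Receptor genes for cytokines were called in both directions, 6 lower and 3 higher of 24 tested. The share called was 37.5%, against 19.3% of all tested genes (9.39% lower and 9.96% higher). The number of these receptors that were lower was 4 without P5 library 3. Tgfbr1 stood at 269.5, 281 and 255 CPM in P5 and 549.8, 567 and 563 CPM in P6 (log2 fold change 1.05, adjusted p = 1.96e-05), while Tgfbr2, its partner chain in the TGF-beta receptor, was at 838, 931 and 1039 CPM in P5 and 584, 651 and 658 CPM in P6 (log2 fold change -0.58). Csf2ra, a chain of the GM-CSF receptor, rose to 293, 307 and 258 CPM from 147, 161 and 158 CPM, and Il4ra, the IL-4 receptor chain, fell to 217, 278 and 245 CPM from 333, 412 and 433 CPM. Retnla, a gene that IL-4 induces in macrophages, stood at 56.7, 32.4 and 25.1 CPM in P5 and 109, 125 and 121 CPM in P6 (log2 fold change 1.64, adjusted p = 0.00115), whereas Clec10a, of the same alternative activation list, fell from 739.8, 703 and 633 CPM to 200.2, 189.7 and 165 CPM. Cd4, which mouse macrophages can express, was at 181, 237 and 229.9 CPM in P5 and 34.8, 47.4 and 32.1 CPM in P6 (log2 fold change -2.51), with the T cell genes Cd3e and Cd3d near 0 in both marks. Ttr, the choroid plexus transport protein gene, was looked up after its values were seen and stood at 3089 CPM in P6 library 1, against 271 CPM or less in the other P5 and P6 libraries (adjusted p = 0.232).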
